A study of Homo sapiens with 6 samples.

Results

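Glycolysis, the pentose phosphate pathway and the TCA cycle are the routes by which cells take glucose apart, and 49 genes of these routes were read from an RNA-seq table of 60612 genes by an exact match of the gene symbol. All 49 were found, with 1 row each. They comprise 18 genes of glucose uptake and glycolysis, 4 of lactate and its transport, 6 of the pentose phosphate pathway, 7 around pyruvate dehydrogenase and pyruvate carboxylase, 12 of the TCA cycle and 2 that use citrate or malate in the cytosol. The cells were HCT116, an established human colorectal cancer line, treated for 2 days with PLOD3 siRNA (3 samples) or with the control siRNA si NC (3 samples). Both groups were kept in the same medium, DMEM containing 10% serum. The knockdown was transient and partial, and the labels do not say whether the samples of a group came from separate cultures. The spread behind each p-value is thus that of these samples alone, and may be technical in origin.

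Glycolysis turns glucose into pyruvate in the cytosol, and many tumour lines convert much of that pyruvate to lactate even when oxygen is present. The pentose phosphate pathway branches off at glucose 6-phosphate and yields NADPH and ribose 5-phosphate. Pyruvate that enters mitochondria becomes acetyl-CoA through pyruvate dehydrogenase or oxaloacetate through pyruvate carboxylase, and the TCA cycle oxidises the acetyl group. Several steps have isozymes encoded by separate genes, such as HK1 and HK2 for the first step of glycolysis.

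The deposited estimated counts summed to between 55416555 and 71736017 in PLOD3 siRNA and between 57457602 and 76802428 in si NC. These totals are not numbers of read pairs: low counts piled up at 4 and 8, with on average 1490 genes per sample at a count of 4, against 558 at 3 and 312 at 5. How a unit relates to a read pair is not given, and counts divided by 4 were tried as an alternative. PLOD3, which encodes a lysyl hydroxylase and glycosyltransferase of collagen, stood at 3.44, 3.40 and 4.05 FPKM in PLOD3 siRNA, against 6.40, 7.16 and 6.22 FPKM in si NC (log2 fold change -0.85, edgeR adjusted p = 0.0035). With a correction for transcript GC content the value was -0.54 (edgeR adjusted p = 0.00647). With transcript length corrected as well it was -0.46 (edgeR adjusted p = 0.00814). FPKM counts sequenced fragments per transcript length, scaled to the size of the library. Of 10 markers of intestinal epithelium, 6 had a mean of at least 1 FPKM, while CDX1 had no reads and VIL1, LGALS4 and CEACAM5 were near 0. The epithelial list summed to 562 to 638 FPKM in PLOD3 siRNA and 666 to 720 FPKM in si NC. The 8 fibroblast markers summed to 1.52 to 1.92 FPKM in PLOD3 siRNA and 2.66 to 2.89 FPKM in si NC, with DCN and LUM at 0. The 7 leukocyte markers summed to 1.72 to 1.85 FPKM in PLOD3 siRNA and 0.986 to 1.87 FPKM in si NC, with PTPRC and CD3E at 0, and no endothelial marker reached 1 FPKM. Mitochondrially encoded genes took 14.4 to 16.4% of the counts in PLOD3 siRNA and 18 to 20.1% in si NC, and the part of any of these in the results was not tested.

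Genes of these pathways changed in both directions in PLOD3 siRNA. The genes that fell were SLC2A1, HK1, PFKL and PKM of glycolysis, PGD of the pentose phosphate pathway, the pyruvate carboxylase gene PC, and CS, IDH2 and OGDH of the TCA cycle. The genes that rose were LDHB, RPIA of the pentose phosphate pathway, PDHA1, PDHB and DLD of pyruvate dehydrogenase, and SUCLA2, SUCLG1, FH and MDH1 of the TCA cycle. In all, 9 of the 47 tested members rose (19.1%) and 9 fell (19.1%), at an adjusted p under 0.05 in edgeR's quasi-likelihood test over 12000 genes. Together 18 of 47 were called (38.3%), against 35.5% of all genes. Over all tested genes 16.2% were called higher and 19.3% lower, so that the members' shares lie near those of the whole table. SLC2A3 and PDK1 were left out of the test because their mean over the 6 samples was under 1 FPKM. Of the called members SLC2A1, HK1 and PC, all lower, passed 1.5-fold, and 0 did so upward. Over the whole table, 5.56% of genes were called and at least 1.5-fold higher and 9.17% called and at least 1.5-fold lower. The groups did not overlap in FPKM for 26 of the 47, with 13 higher and 13 lower, against 24.6% higher and 27.5% lower over all genes. The median log2 fold change was 0.09 over the members and 0.003 over all genes. In bulk RNA, a change in the RNA of each cell and a change in how many cells carry it cannot be told apart.

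**Figure D1:**
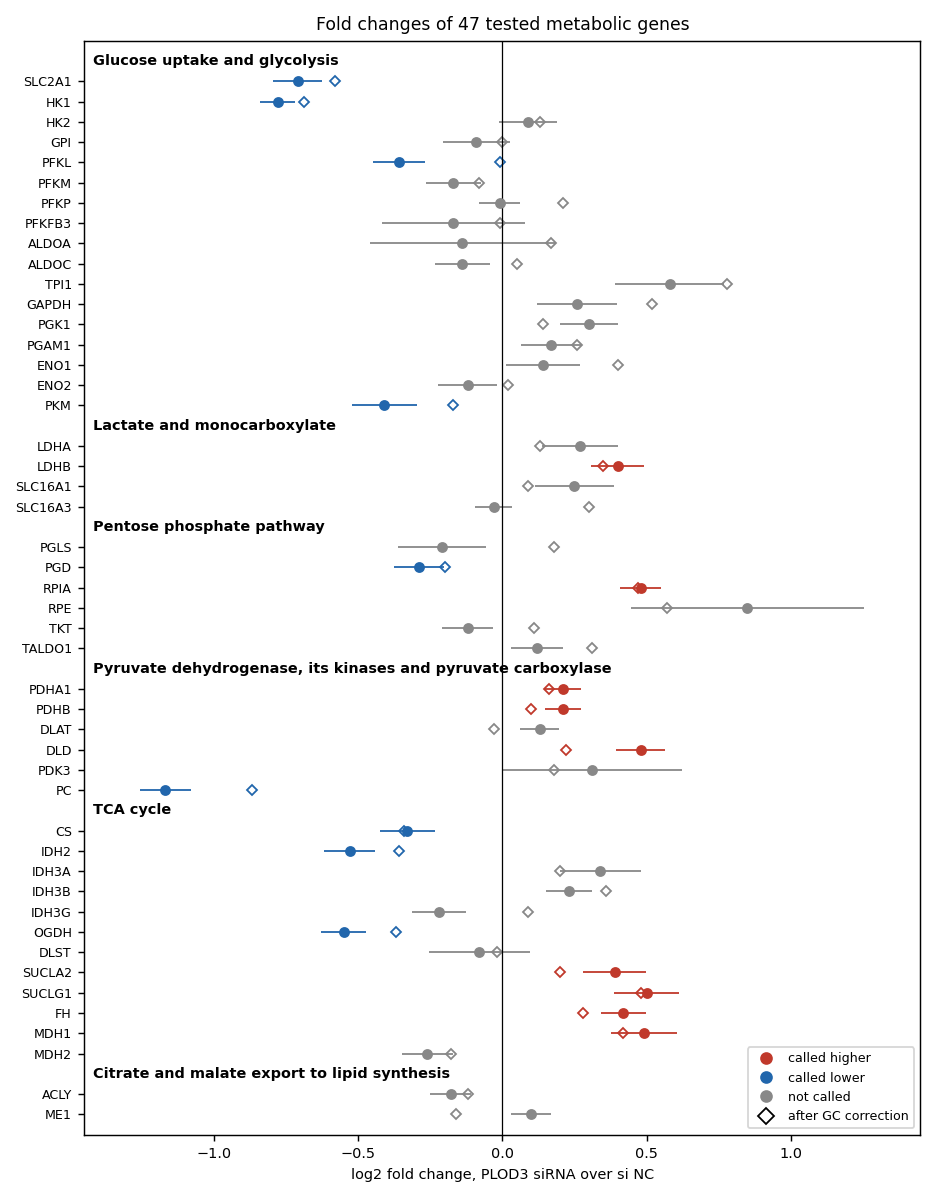
Log2 fold changes of PLOD3 siRNA over si NC for the 47 tested members, grouped by pathway, with filled points for the edgeR estimate, bars for its SE (n = 3 per group) and open diamonds for the estimate after a correction for transcript GC content. PC lies farthest to the left at -1.17, followed by HK1 at -0.78 and SLC2A1 at -0.71, and the called genes on the right reach 0.50 (SUCLG1).

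The 18 calls differed in whether they held when 1 sample was omitted. Such a fit has fewer samples and less power, so a lost call need not mean that the call rested on the omitted sample. Over all genes, calls fell from 1945 higher and 2319 lower to 1083 to 1651 higher and 1509 to 2011 lower. HK1, SLC2A1, PC, IDH2 and OGDH (lower) and RPIA, DLD and FH (higher) kept their call whichever of the 6 samples was omitted, with adjusted p of at most 0.0417. The other 10 calls were lost in at least 1 such fit. SUCLG1 lost it without si NC replicate 3 (adjusted p = 0.0619), LDHB without si NC replicate 2 or 3 (0.0562 and 0.0554), and MDH1 without si NC replicate 1, 2 or 3 (0.0502, 0.0575 and 0.0649). PFKL lost it without PLOD3 siRNA replicate 1 or 2 or si NC replicate 3 (0.0727, 0.0668 and 0.0579), and SUCLA2 kept it without PLOD3 siRNA replicate 3 and without si NC replicate 1 only. PKM kept its call in 1 fit, without PLOD3 siRNA replicate 3, as did PDHB, and CS kept it in 1, without si NC replicate 3. PGD and PDHA1 kept it in 0 of the 6, although their log2 fold changes stayed at -0.33 to -0.21 and 0.18 to 0.24. The count of members called higher was 4 without si NC replicate 2 and 4 without si NC replicate 3, against 1422 and 1106 of 12000 genes. The count called lower was 5 without PLOD3 siRNA replicate 1, against 1530 of 12000 genes.

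The called members were divided by the base composition of their transcripts. The 9 that rose had a GC content of 39.3 to 48.6% in their longest coding transcript, and the 9 that fell had 49 to 63.5%, so that the ranges did not overlap. The same direction was present in the whole table, where the median log2 fold change was 0.28 in the lowest of 5 equal bins of GC content and -0.33 in the highest. Across genes, Pearson's r between fold change and GC content was -0.606 over the 47 members and -0.376 over 11968 genes, which are not independent replicates. When each sample's trend with GC content was taken out, 6 of the 9 that rose kept their call (LDHB, RPIA, DLD, SUCLG1, FH and MDH1), and 6 of the 9 that fell did so (SLC2A1, HK1, PC, CS, IDH2 and OGDH). PDHA1, PDHB and SUCLA2 and PFKL, PKM and PGD lost theirs. After that correction 7 further members were called higher, namely PFKP, TPI1, GAPDH, ENO1, SLC16A3, TALDO1 and IDH3B, and 0 lower, so that 13 were higher and 6 lower, against 12.9% of all genes higher and 14.5% lower. A correction for both GC content and transcript length gave 8 of the 47 higher and 6 lower, against 1636 higher and 1474 lower of 11968 genes. Under it LDHB, FH and MDH1 were no longer called, nor were TPI1 and TALDO1. PFKP and SLC16A3 had a log2 fold change just under 0 before the correction (-0.01 and -0.03) and 0.21 and 0.30 after it. Whether the trend with GC content arose in the cells or in the libraries was not tested.

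**Figure D2:**
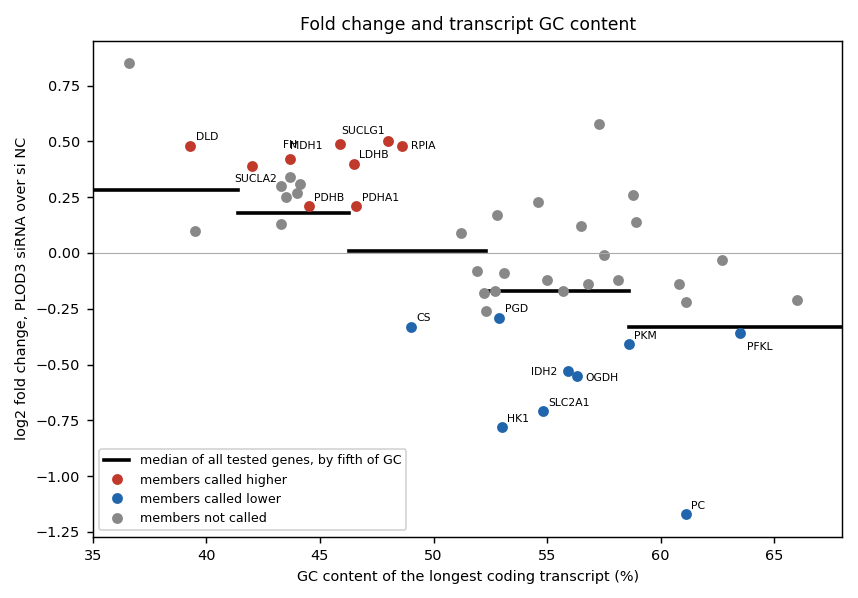
Log2 fold change (PLOD3 siRNA over si NC) against the GC content of the longest coding transcript in percent, 1 point per tested member, with black bars for the median of all tested genes in each of 5 equal bins of GC content. The members called higher lie left of 49% and those called lower at or right of it, and the black bars descend from 0.28 to -0.33.

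PC, HK1, SLC2A1 and RPIA had the smallest p-values among called members with an entry in the RefSeq promoter table (GRCh38.p14). Their promoter windows are shown to let the sequence ahead of the most clearly changed genes be compared. Each runs from 250 bases before to 50 after the annotated start, 5′ to 3′ on the gene's strand. Capitals mark the letters ACGTG on either strand (ACGTG or CACGT), a form of the core of the element bound by hypoxia-inducible factors. The other form, GCGTG, was not searched for or marked.
PC (chr11:66958334-66958633, minus strand): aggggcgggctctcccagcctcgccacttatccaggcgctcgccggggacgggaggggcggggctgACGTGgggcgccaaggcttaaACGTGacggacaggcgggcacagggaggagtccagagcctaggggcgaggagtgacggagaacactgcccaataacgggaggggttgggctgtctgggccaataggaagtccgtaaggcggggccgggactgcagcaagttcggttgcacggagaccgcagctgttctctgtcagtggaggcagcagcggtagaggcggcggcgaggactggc
HK1 (chr10:69269750-69270049, plus strand): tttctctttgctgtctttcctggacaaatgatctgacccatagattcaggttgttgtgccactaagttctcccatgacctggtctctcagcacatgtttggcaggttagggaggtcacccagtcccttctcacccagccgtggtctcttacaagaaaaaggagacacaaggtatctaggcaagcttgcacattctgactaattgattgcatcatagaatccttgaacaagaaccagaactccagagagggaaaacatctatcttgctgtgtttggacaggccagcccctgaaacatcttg
SLC2A1 (chr1:42958819-42959118, minus strand): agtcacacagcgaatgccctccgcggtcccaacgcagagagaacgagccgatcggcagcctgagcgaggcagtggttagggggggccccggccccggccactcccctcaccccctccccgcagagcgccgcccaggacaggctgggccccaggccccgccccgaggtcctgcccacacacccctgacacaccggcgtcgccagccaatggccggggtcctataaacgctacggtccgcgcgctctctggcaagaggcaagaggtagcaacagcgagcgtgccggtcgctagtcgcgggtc
RPIA (chr2:88691423-88691722, plus strand): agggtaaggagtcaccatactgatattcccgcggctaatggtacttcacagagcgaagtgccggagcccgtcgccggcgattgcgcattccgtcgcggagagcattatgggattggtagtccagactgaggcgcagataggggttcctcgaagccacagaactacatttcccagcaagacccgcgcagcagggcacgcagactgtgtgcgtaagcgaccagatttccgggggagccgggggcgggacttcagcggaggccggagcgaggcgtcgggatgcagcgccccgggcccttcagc
The PC window held ACGTG at 2 places, positions -184 and -163 counted from the start, and the other windows did not hold it. The unmarked form GCGTG occurs in the SLC2A1 window and, on the other strand, in the RPIA window. HK1 has several annotated starts, and its window lies at the outermost one. OGDH, SLC16A1 and SLC2A3 had no entry. Over the other 46 members, 14 windows held ACGTG (30.4%), against 21.4% of 35116 windows in the table. Of those of members that rose, 1 of 9 held it (PDHB), and of those of members that fell, 2 of 8 (PC and PGD), against 11 of the 28 that were tested and not called (39.3%). The 6-letter E-box CACGTG, which contains ACGTG on both strands, was in 4 member windows (ALDOC, GAPDH, LDHA and PDHB, 8.70%), against 7.26% of all. A match of letters is a description and does not show that a factor binds there.

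Of the genes of glucose uptake and the first phosphorylation, SLC2A1 and HK1 fell, and HK2 did not pass. SLC2A1 (ENSG00000117394, chromosome 1, 42925353 to 42958868, minus strand, GRCh38) encodes GLUT1, the glucose carrier of most proliferating cells. It stood at 6.12, 6.44 and 7.39 FPKM in PLOD3 siRNA, against 11.1, 10.9 and 10.8 FPKM in si NC. Every PLOD3 siRNA sample was below every si NC sample, and the log2 difference was -0.71 (SE 0.0844, edgeR adjusted p = 0.0031). SLC2A3, which encodes the high-affinity carrier GLUT3, was low throughout, at 0.750, 0.648 and 0.823 FPKM in PLOD3 siRNA and 1.14, 0.998 and 0.868 FPKM in si NC. The groups did not overlap, and without the filter on low values its log2 difference was -0.41 (edgeR adjusted p = 0.158). Table rows named as SLC2A3 pseudogenes summed to 39.6% of its level in PLOD3 siRNA and 30.6% in si NC, so reads may be split between them.

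HK1 (ENSG00000156515, chromosome 10, 69269984 to 69401884, plus strand) encodes the hexokinase found in most tissues. Its FPKM was 10.2, 9.83 and 10.7 in PLOD3 siRNA, against 17.8, 17.9 and 17.4 in si NC. The level fell to 58.0% of si NC, a log2 difference of -0.78 (SE 0.0612, edgeR adjusted p = 0.00182) that was -0.69 after the GC correction (adjusted p = 0.00198). HK2, the inducible hexokinase of many tumours, was at 9.25, 7.80 and 7.24 FPKM in PLOD3 siRNA and 7.68, 7.72 and 7.49 FPKM in si NC. Its groups overlapped and it did not pass (log2 0.09, edgeR adjusted p = 0.522). HK2 thus made up 47.6, 44.2 and 40.3% of the summed HK1 and HK2 FPKM in PLOD3 siRNA, against 30.2, 30.2 and 30.1% in si NC. The log2 ratio of HK2 to HK1 was higher by 0.86 in PLOD3 siRNA, without overlap between the groups, and the two-sided exact permutation test gave p = 0.1 (n = 3 each), the smallest it can give, with an adjusted p of 0.367 over the 11 ratios tested.

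The phosphofructokinase genes, which encode the committed step of glycolysis, differed among themselves. PFKL, the liver-type subunit, was at 9.62, 8.51 and 10.1 FPKM in PLOD3 siRNA and 11.5, 13.1 and 11.5 FPKM in si NC. It fell by 0.36 on the log2 scale (SE 0.0907, edgeR adjusted p = 0.0252), and after the GC correction the value was -0.01 (adjusted p = 0.934). PFKP, the platelet-type subunit and the most abundant of the family per length, was at 35.6 ± 2.19 FPKM in PLOD3 siRNA and 35.9 ± 1.98 FPKM in si NC (SD, n = 3 each). PFKM, the muscle-type subunit, was at 17.3 ± 2.17 and 19.4 ± 0.984 FPKM (SD, n = 3 each) in PLOD3 siRNA and si NC, and did not pass (edgeR adjusted p = 0.219). The share of PFKP in the family's FPKM was 54.5, 58.5 and 58.7% in PLOD3 siRNA, against 54.1, 52.8 and 52.9% in si NC, without overlap. The log2 ratio of PFKP to PFKL differed by 0.35 (exact permutation p = 0.1, the smallest possible). PFKFB3, which makes the activator fructose 2,6-bisphosphate, varied between PLOD3 siRNA samples, at 3.52, 6.08 and 3.44 FPKM, against 4.88, 5.16 and 4.81 FPKM in si NC. Replicate 2 lay above and replicates 1 and 3 below all si NC samples, and the gene did not pass (edgeR adjusted p = 0.621, and called lower without PLOD3 siRNA replicate 2).

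Calls in the middle steps of glycolysis depended on the tool. In edgeR 0 of the genes from GPI to ENO2 other than PFKL passed, although TPI1 and PGK1 had an unadjusted p of 0.0195 and 0.022. DESeq2 called both higher (adjusted p = 0.00824 for TPI1 and 0.0316 for PGK1), and limma on log2(FPKM + 1) called PGK1 (0.0401). TPI1, which interconverts the triose phosphates, was at 358.8, 455.9 and 362.0 FPKM in PLOD3 siRNA and 293.9, 198.8 and 302.0 FPKM in si NC. Every PLOD3 siRNA sample lay above the si NC samples, although the gene missed the threshold (log2 0.58, SE 0.188, edgeR adjusted p = 0.0531) and passed after the GC correction (log2 0.78, adjusted p = 0.0375). Rows named as TPI1 pseudogenes summed to 7.49% of its level in PLOD3 siRNA and 9.44% in si NC. PGK1, the first enzyme of glycolysis to make ATP, was at 100.5, 106.0 and 88.0 FPKM in PLOD3 siRNA and 79.3, 82.0 and 78.9 FPKM in si NC, also without overlap and short of the threshold (log2 0.30, edgeR adjusted p = 0.0579). GAPDH, the most abundant member, averaged 2441 ± 321 FPKM in PLOD3 siRNA and 2045 ± 157 FPKM in si NC (SD, n = 3 each), and its groups overlapped (log2 0.26, edgeR adjusted p = 0.184). A row on the other strand of GAPDH, AC006064, averaged 18.4 ± 19.1 FPKM in PLOD3 siRNA and 1.63 ± 0.652 FPKM in si NC (SD, n = 3 each). It was called higher (log2 3.51, edgeR adjusted p = 0.0372) and overlaps GAPDH over 577 bases. No strand setting is stated, and whether reads were exchanged between the 2 rows was not tested. With FPKM rescaled to TPM, where the median of all genes shifts to 0.095, GAPDH was called higher (log2 0.35, limma adjusted p = 0.0462). The phosphoglycerate mutase gene PGAM1 and the enolase gene ENO1 had log2 differences of 0.17 and 0.14 and did not pass (edgeR adjusted p = 0.242 and 0.410). GPI, ALDOC and ENO2 had log2 differences of -0.09 to -0.14 and did not pass either.

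PKM, which encodes the muscle-type pyruvate kinase of the last step, was at 114.8, 100.3 and 136.9 FPKM in PLOD3 siRNA, against 171.6, 145.5 and 151.8 FPKM in si NC. It fell to 75.1% of si NC (log2 -0.41, SE 0.113, edgeR adjusted p = 0.0329), and with GC content taken out it no longer passed (log2 -0.17, adjusted p = 0.330). The table has 1 value per gene and does not separate the PKM1 and PKM2 splice forms. The aldolase gene ALDOA was uneven within both groups, at 117.7, 108.0 and 183.4 FPKM in PLOD3 siRNA and 121.2, 219.2 and 108.8 FPKM in si NC. A row for AC093512 (ENSG00000285043) covers the whole of ALDOA on the same strand, and it was low in the samples where ALDOA was high, at 47.1, 68.4 and 19.2 FPKM in PLOD3 siRNA and 56.6, 17.7 and 65.8 FPKM in si NC. The 2 rows summed to 181.3 ± 19.3 FPKM in PLOD3 siRNA and 196.5 ± 35.1 FPKM in si NC (SD, n = 3 each), so the single values of ALDOA are uncertain. In the glycolysis group as a whole, 4 of 17 tested genes fell (23.5%, against 19.3% of all genes) and 0 rose (against 16.2%). The median log2 fold change was -0.12, which became 0.05 after the GC correction. With that correction 4 of the 17 were called higher and 2 lower, against 12.9% of all genes higher and 14.5% lower.

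**Figure D3:**
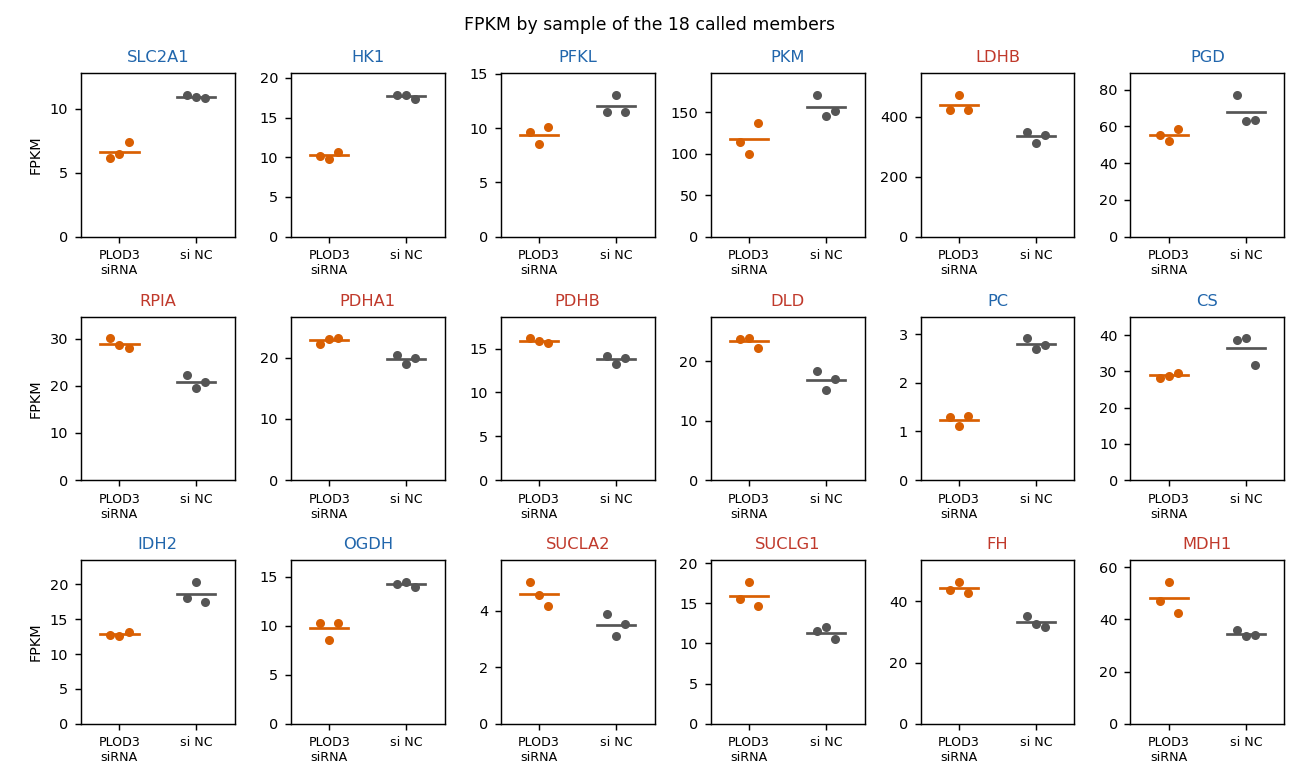
FPKM of the 18 called members in each sample, with 1 panel per gene, points for samples and lines for group means (n = 3), and symbols in red for genes called higher and blue for genes called lower. No panel has an overlap between PLOD3 siRNA and si NC, and PC and HK1 show the widest gaps relative to their level.

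Of the lactate genes, LDHB rose. It encodes the heart-type subunit of lactate dehydrogenase, which favours the oxidation of lactate to pyruvate. Its FPKM was 422.8, 473.7 and 423.8 in PLOD3 siRNA, against 350.1, 313.5 and 340.3 in si NC, without overlap (log2 0.40, SE 0.0918, edgeR adjusted p = 0.0179). With GC content and length corrected together its log2 difference was 0.18 and the call was lost (adjusted p = 0.0633). LDHA, the muscle-type subunit that favours the making of lactate, was at 155.0, 144.5 and 134.2 FPKM in PLOD3 siRNA and 102.9, 135.8 and 121.9 FPKM in si NC. The lowest PLOD3 siRNA sample was just below the highest si NC sample, and LDHA did not pass (log2 0.27, edgeR adjusted p = 0.155). LDHB made up 75.3 ± 1.83% of the family's FPKM in PLOD3 siRNA and 73.6 ± 3.76% in si NC (SD, n = 3 each), and the ratio of LDHB to LDHA overlapped between the groups (exact permutation p = 0.7). Of the lactate exporters, SLC16A3 (MCT4) was at 19.8, 18.1 and 20.7 FPKM in PLOD3 siRNA and 20.1, 20.4 and 19.2 FPKM in si NC. SLC16A1 (MCT1) was at 30.3, 28.4 and 22.0 FPKM in PLOD3 siRNA and 25, 22.5 and 21.0 FPKM in si NC. Neither passed, with edgeR adjusted p of 0.785 and 0.207. The gene spans of SLC16A3 and CSNK1D, on the other strand, overlap over 22107 bases, introns included. Overlap of their exons was not computed. Without a stated strand setting, some reads from shared bases may have been given to the wrong gene.

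In the pentose phosphate pathway, 1 of 6 genes rose (16.7%, against 16.2% of all genes) and 1 fell (16.7%, against 19.3%), near the shares of the whole table. RPIA, which makes ribose 5-phosphate from ribulose 5-phosphate in the non-oxidative branch, was at 30.1, 28.7 and 28.0 FPKM in PLOD3 siRNA, against 22.2, 19.6 and 20.7 FPKM in si NC. It rose to 139% of si NC (log2 0.48, SE 0.0706, edgeR adjusted p = 0.00515), and the value hardly moved with the GC correction (0.47, adjusted p = 0.00551). PGD, the NADPH-producing dehydrogenase of the oxidative branch, was at 55.2, 52.0 and 58.8 FPKM in PLOD3 siRNA and 77.3, 63.1 and 63.3 FPKM in si NC. It was called lower (log2 -0.29, edgeR adjusted p = 0.0408) and lost the call after the GC correction (adjusted p = 0.136). RPE, the epimerase that acts on the same sugar phosphate as RPIA, was at 9.23, 12.8 and 12 FPKM in PLOD3 siRNA and 5.10, 3.37 and 10.5 FPKM in si NC. It had the widest spread of the group because si NC replicate 3 stood apart from replicates 1 and 2, and it did not pass (log2 0.85, SE 0.403, edgeR adjusted p = 0.144), although it was called higher without that replicate. TKT and TALDO1, which pass carbon between the pathway and glycolysis, were at 47.2 ± 1.59 and 51.9 ± 2.51 FPKM in PLOD3 siRNA and 51.5 ± 3.43 and 47.9 ± 3.55 FPKM in si NC (SD, n = 3 each) and did not pass, with log2 differences of -0.12 and 0.12. PGLS, the lactonase of the oxidative branch, did not pass either (log2 -0.21, edgeR adjusted p = 0.318).

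PC showed the largest fold change of all tested members. It encodes pyruvate carboxylase, the mitochondrial enzyme that refills oxaloacetate (ENSG00000173599, chromosome 11, 66848417 to 66958386, minus strand). Its FPKM was 1.29, 1.12 and 1.31 in PLOD3 siRNA, against 2.92, 2.69 and 2.78 in si NC. The level fell to 44.4% of si NC (log2 -1.17, SE 0.0883, edgeR adjusted p = 0.00182), and the value was -0.87 after the GC correction and -0.72 after a correction for GC and length (adjusted p = 0.00378 and 0.00374). PC is a low-abundance member, and LRFN4, at 4.87 ± 2.05 FPKM in PLOD3 siRNA and 7.95 ± 0.661 FPKM in si NC (SD, n = 3 each), overlaps it on the other strand over 3829 bases.

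Of the pyruvate dehydrogenase genes, DLD, PDHA1 and PDHB rose. DLD, the dihydrolipoamide dehydrogenase shared by all 2-oxoacid dehydrogenase complexes, was at 23.8, 23.9 and 22.3 FPKM in PLOD3 siRNA, against 18.3, 15.1 and 17.0 FPKM in si NC. It rose to 139% of si NC (log2 0.48, SE 0.0848, edgeR adjusted p = 0.00817), and the value was 0.22 after the GC correction (adjusted p = 0.0358). PDHA1 and PDHB, the alpha and beta subunits of the decarboxylase, both had a log2 fold change of 0.21. PDHA1 was at 22.2, 23.1 and 23.2 FPKM in PLOD3 siRNA and 20.5, 19.0 and 19.9 FPKM in si NC (edgeR adjusted p = 0.0431). PDHB was at 16.2, 15.9 and 15.6 FPKM in PLOD3 siRNA and 14.1, 13.3 and 13.9 FPKM in si NC (edgeR adjusted p = 0.0395). After the GC correction neither PDHA1 nor PDHB was called (log2 0.16 and 0.10, edgeR adjusted p = 0.0803 and 0.215). The 2 subunits kept their proportion, with PDHA1 at 59.0 ± 1.02% of their sum in PLOD3 siRNA and 59.0 ± 0.192% in si NC (SD, n = 3 each). DLAT, the acetyltransferase core, was at 22.7 ± 1.60 FPKM in PLOD3 siRNA and 20.9 ± 0.736 FPKM in si NC (SD, n = 3 each) and did not pass (edgeR adjusted p = 0.184). PDK1, a kinase that switches the complex off, was at 0.906, 0.807 and 0.838 FPKM in PLOD3 siRNA and 0.644, 0.426 and 0.611 FPKM in si NC. It was below the level needed for the test, and without the filter it was called higher (log2 0.62, edgeR adjusted p = 0.0468). PDK3, another such kinase, was at 1.26, 0.881 and 1.28 FPKM in PLOD3 siRNA and 0.526, 1.04 and 1.18 FPKM in si NC, and did not pass (edgeR adjusted p = 0.467).

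Within the TCA cycle, 3 of 12 genes fell (25%, against 19.3% of all genes) and 4 rose (33.3%, against 16.2%), and the median log2 fold change was 0.07. The genes that fell encode enzymes between citrate synthesis and succinyl-CoA. Not all genes of that stretch did so. IDH3G was lower without overlap (log2 -0.22), but IDH3B was higher without overlap (log2 0.23), and neither was called. DLD, also part of the 2-oxoglutarate dehydrogenase complex, was called higher (log2 0.48). CS, which joins acetyl-CoA to oxaloacetate, was at 28.3, 28.8 and 29.7 FPKM in PLOD3 siRNA, against 38.8, 39.2 and 31.8 FPKM in si NC (log2 -0.33, SE 0.0953, edgeR adjusted p = 0.0358). IDH2, the mitochondrial NADP-dependent isocitrate dehydrogenase, was at 12.8, 12.6 and 13.1 FPKM in PLOD3 siRNA, against 18, 20.4 and 17.5 FPKM in si NC (log2 -0.53, SE 0.0879, edgeR adjusted p = 0.00689). OGDH, the decarboxylase of the 2-oxoglutarate dehydrogenase complex, was at 10.3, 8.57 and 10.3 FPKM in PLOD3 siRNA, against 14.3, 14.5 and 14.0 FPKM in si NC (log2 -0.55, SE 0.0777, edgeR adjusted p = 0.0046). In CS, IDH2 and OGDH all PLOD3 siRNA samples were below all si NC samples, and the calls of all 3 held after the GC correction (log2 -0.34, -0.36 and -0.37).

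The TCA genes that rose encode enzymes of the stretch after succinyl-CoA and the cytosolic malate dehydrogenase. Not all genes of that stretch did so. MDH2 was lower without overlap (log2 -0.26) and not called. Outside the members, SDHA was called lower (log2 -0.35), SDHD and SUCLG2 higher (log2 0.42 and 0.25), and SDHB and SDHC were not called. These non-member genes were looked at after their values were seen, and their calls were lost after the GC correction. SUCLG1, the alpha subunit common to both forms of succinyl-CoA ligase, was at 15.5, 17.7 and 14.6 FPKM in PLOD3 siRNA, against 11.5, 12 and 10.5 FPKM in si NC (log2 0.50, SE 0.114, edgeR adjusted p = 0.0181). SUCLA2, the beta subunit of the ADP-forming ligase, was at 5.04, 4.58 and 4.17 FPKM in PLOD3 siRNA and 3.90, 3.11 and 3.53 FPKM in si NC (log2 0.39, edgeR adjusted p = 0.0329). FH, the fumarase gene, was at 43.6, 46.5 and 42.7 FPKM in PLOD3 siRNA, against 35.3, 32.6 and 31.6 FPKM in si NC (log2 0.42, SE 0.0796, edgeR adjusted p = 0.0099). MDH1, the cytosolic malate dehydrogenase of the malate-aspartate shuttle, was at 47, 54.5 and 42.6 FPKM in PLOD3 siRNA, against 35.8, 33.8 and 33.9 FPKM in si NC (log2 0.49, SE 0.115, edgeR adjusted p = 0.0201). All samples of PLOD3 siRNA were above all of si NC in the genes that rose. The calls of SUCLG1, FH and MDH1 held after the GC correction while that of SUCLA2 did not (adjusted p = 0.142). With length corrected as well, FH stood at 0.15 (adjusted p = 0.0723) and MDH1 at 0.25 (0.0543), and neither was called, while SUCLG1 was (log2 0.31, 0.0367).

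MDH2 encodes the mitochondrial malate dehydrogenase. It was at 66.1, 68.3 and 70.0 FPKM in PLOD3 siRNA, against 81.1, 89.0 and 74.8 FPKM in si NC, without overlap but short of the threshold (log2 -0.26, edgeR adjusted p = 0.0636). The share of MDH2 in the summed FPKM of MDH1 and MDH2 was 58.5, 55.6 and 62.2% in PLOD3 siRNA, against 69.4, 72.5 and 68.8% in si NC. The log2 ratio of MDH2 to MDH1 was lower by 0.73 in PLOD3 siRNA (a difference of -0.73, -0.83 to -0.63 with 1 sample left out), with an exact permutation p = 0.1, the smallest possible for 3 against 3, and an adjusted p of 0.367 over the 11 ratios. The ratios of HK2 to HK1, PFKP to PFKL and MDH2 to MDH1 did not overlap between the groups, and the other 8 did.

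**Figure D4:**
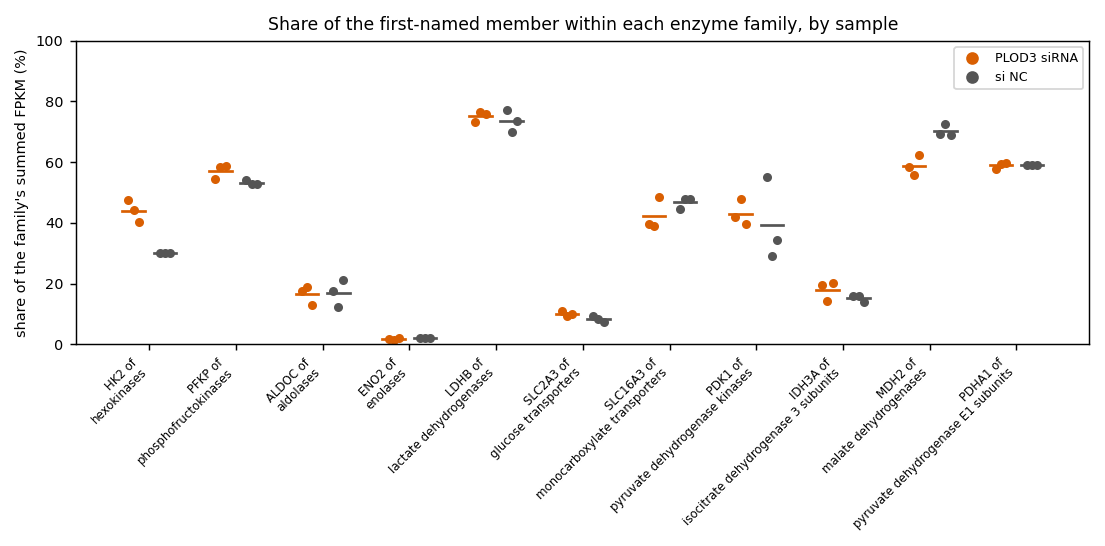
Share of the first-named gene in the summed FPKM of its enzyme family, in percent, for each sample of PLOD3 siRNA and si NC, with lines for group means (n = 3). The share of HK2 is 40.3 to 47.6% in PLOD3 siRNA and 30.1 to 30.2% in si NC, that of MDH2 55.6 to 62.2% and 68.8 to 72.5%, and the shares of PDHA1 sit near 59.0% in both groups.

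Ratios between subunit genes or alternative routes, chosen after the values were seen and not tested, are given next. The ratio of OGDH to DLD, in FPKM, was 0.431, 0.359 and 0.463 in PLOD3 siRNA, against 0.781, 0.961 and 0.820 in si NC. The ratio of OGDH to DLST, the other partner in its complex, was 0.392, 0.341 and 0.605 in PLOD3 siRNA and 0.589, 0.568 and 0.605 in si NC, and the groups overlapped. Ratios to DLD were also lower for PDHA1, at 0.981 ± 0.0543 in PLOD3 siRNA and 1.18 ± 0.0713 in si NC, for PDHB, at 0.681 ± 0.0163 and 0.822 ± 0.0548, and for DLAT, at 0.978 ± 0.109 and 1.25 ± 0.0776 (SD, n = 3 each). These ratios are not corrected for GC content. With the GC correction the log2 fold change of DLD went from 0.48 to 0.22 and that of OGDH from -0.55 to -0.37. Those of PDHA1, PDHB and DLAT went from 0.21, 0.21 and 0.13 to 0.16, 0.10 and -0.03. The ratio of IDH2, the NADP-dependent enzyme, to IDH3B, a subunit of the NAD-dependent enzyme, was 0.399, 0.371 and 0.422 in PLOD3 siRNA. In si NC it was 0.655, 0.719 and 0.634. IDH3B does not stand for the whole NAD-dependent route, as the subunit gene IDH3G moved in the other direction. SUCLA2 to SUCLG1 stayed at 0.290 ± 0.0332 in PLOD3 siRNA and 0.311 ± 0.0459 in si NC (SD, n = 3 each). The 3 subunit genes of the NAD-dependent isocitrate dehydrogenase did not pass. The catalytic subunit gene IDH3A was at 11.5, 8.54 and 11.8 FPKM in PLOD3 siRNA and 8.80, 9.16 and 7.23 FPKM in si NC. IDH3B was at 32.2, 34.0 and 31.0 FPKM in PLOD3 siRNA and 27.5, 28.4 and 27.6 FPKM in si NC, without overlap (log2 0.23, edgeR adjusted p = 0.0642). IDH3G was at 15.4, 16.6 and 15.9 FPKM in PLOD3 siRNA and 18.6, 20.0 and 17.2 FPKM in si NC, also without overlap but in the other direction (log2 -0.22, edgeR adjusted p = 0.111, and 0.09 after the GC correction). DLST, the succinyltransferase core of the 2-oxoglutarate complex, was at 26.2, 25.1 and 17.0 FPKM in PLOD3 siRNA and 24.2, 25.5 and 23.0 FPKM in si NC, with PLOD3 siRNA replicate 3 alone below the rest.

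The genes that use citrate and malate in the cytosol did not pass. ACLY, which splits exported citrate into acetyl-CoA for lipid synthesis, was at 59.2, 51.2 and 62.0 FPKM in PLOD3 siRNA and 65.8, 64.4 and 66.0 FPKM in si NC (log2 -0.18, edgeR adjusted p = 0.0906). The groups did not overlap. ME1, the NADPH-producing malic enzyme of the cytosol, was at 28.2, 25.9 and 26.2 FPKM in PLOD3 siRNA and 27.0, 23.4 and 24.7 FPKM in si NC (log2 0.10, edgeR adjusted p = 0.289).

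Of a list of 82 other genes of these pathways, 52 could be tested, and 8 rose (15.4%) and 9 fell (17.3%), again near the shares over all genes. The 8 with the smallest p were ME2, PGM1, DHTKD1, PGM2, ENO3, LIAS, OGDHL and PDK2, and all of them kept their call whichever sample was omitted and after the GC correction. With transcript length corrected as well, PDK2 alone lost its call (log2 -0.29, edgeR adjusted p = 0.095). ME2, the mitochondrial malic enzyme, was at 5.80, 5.38 and 5.73 FPKM in PLOD3 siRNA, against 3.60, 3.56 and 3.48 FPKM in si NC (log2 0.67, edgeR adjusted p = 0.00208). The phosphoglucomutase genes moved apart: PGM1 was at 11.8, 11.7 and 13.4 FPKM in PLOD3 siRNA and 19.8, 19.6 and 21.5 FPKM in si NC (log2 -0.72), while PGM2 was at 16.8, 16.8 and 16.0 FPKM in PLOD3 siRNA and 12.1, 11.2 and 12.4 FPKM in si NC (log2 0.48). Both relatives of OGDH in the list fell with it, DHTKD1 by 0.86 and OGDHL by 0.84 on the log2 scale (edgeR adjusted p = 0.00424 and 0.00956). LIAS, the lipoyl synthase whose product the 2-oxoacid dehydrogenases need, was higher by 0.77 on the log2 scale, the muscle-type enolase gene ENO3 fell by 0.69, and the pyruvate dehydrogenase kinase gene PDK2 fell by 0.67 (edgeR adjusted p = 0.00722, 0.00646 and 0.0123). Of the succinate dehydrogenase genes, which belong to the respiratory chain as well and were looked at after their values were seen, SDHD was called higher (log2 0.42) and SDHA lower (log2 -0.35), and both calls were lost after the GC correction.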

How the data were processed

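RNA of 6 HCT116 samples was sequenced after depletion of ribosomal RNA with a Ribo-Zero kit, per the labels' protocols. The authors deposited 1 table of 60612 genes with FPKM and estimated counts for each sample, per the file headers. The counts are whole numbers, were not normalized and were used as deposited. Per the submitters' processing notes, HISAT2 2.0.4, StringTie 1.3.4d and cutadapt 1.9 were used. The sources used here name no build, annotation, strand setting or counting step. All 49 members lie at their GENCODE 29 positions, so coordinates were read as GRCh38.

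Groups and replicate numbers came from the titles. The 12000 genes that averaged 1 FPKM or more were scaled by TMM and compared with edgeR 4.0.16 in R 4.3.3 (quasi-likelihood test, two-sided, Benjamini-Hochberg over all 12000, threshold 0.05, all 6 samples, no covariate). Levels are deposited FPKM. The ratio of 2 genes of a family was compared by an exact permutation test. The GC correction takes out a loess trend (span 0.5) of each sample on transcript GC content, in 11968 genes. Alternatives used DESeq2 1.42.0 and limma 3.58.1 on log2(FPKM + 1), log2(FPKM + 0.1) and log2(TPM + 1). The members and lists were chosen with earlier results of these data known. Sample values are given for members called with at least 1.5-fold change, up to 5 per pathway by p and families that differ by 0.5, and for further members chosen after their values were seen.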

Additional observations from a re-analysis of the deposited data

How the results depend on the processing

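Of the 18 called members, 7 kept their call in each alternative other than leaving out a sample in which they were tested (SLC2A1, HK1, RPIA, PC, IDH2, OGDH and SUCLG1), and DESeq2 size factors and counts divided by 4 lost no member's call. DESeq2 itself gave 12 higher, with TPI1, PGK1 and RPE added, and 9 lower. Over all 12000 genes it called 2355 higher and 2557 lower, against 1945 and 2319 in edgeR. The counts of members higher and lower were 9 and 9. They were 14 and 5 in limma on log2(TPM + 1), where all genes gave 2470 higher and 1461 lower (62.8% of calls higher, against 45.6%). Members lower numbered 5 without a filter on low values (against 2043 of the 32482 genes tested) and 5 with the replicate block and GC correction. With 1 sample left out they ranged from 4 to 10 higher and 5 to 7 lower. Over all genes, 1192 were higher and 1354 lower at a mean FPKM of at least 5 (6095 tested), 1039 and 1208 with the replicate block and GC correction, 1474 lower with the GC and length correction, and 1083 to 1651 higher and 1509 to 2011 lower with 1 sample left out.

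Same-numbered samples did not deviate together (r = 0.0486, -0.0107 and -0.023 for numbers 1 to 3), and not every sample correlated best with its own number (PLOD3 siRNA 2 with si NC 3 at 0.0501), so the numbers do not pair them. The replicate block alone gave 6 members higher and 6 lower, and 1471 and 1834 genes.

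Pathway medians moved as follows. Glycolysis stood at -0.12 and at 0.0017 in log2(TPM + 1), 0.05 with GC, 0.16 with GC and length, 0.06 with the block and GC, and -0.16 to 0.04 with 1 sample left out. The lactate genes stood at 0.26, with 0.35 in TPM, 0.18 with GC and length and 0.20 to 0.36 with 1 left out. The pentose phosphate genes stood near 0, with 0.10 in TPM, 0.24 with GC, 0.16 with GC and length, 0.24 with the block and GC, and -0.05 to 0.07 with 1 left out. The pyruvate dehydrogenase group stood at 0.21, with 0.17 at a mean FPKM of at least 5, 0.31 in TPM, 0.13 with GC, 0.06 with GC and length, 0.13 with the block and GC, and 0.18 to 0.23 with 1 left out. The FPKM filter removed PC and PDK3 (means 2.02 and 1.03 FPKM), so the 0.17 is over fewer genes. The TCA cycle stood at 0.07, with -0.13 at a mean FPKM of at least 5, 0.16 in TPM and -0.01 to 0.18 with 1 left out. The FPKM filter removed SUCLA2 (mean 4.05 FPKM, log2 0.39), so the -0.13 is the median of fewer genes. The citrate and malate genes stood at -0.04, with 0.06 in TPM, -0.14 with GC, -0.14 with the block and GC, and -0.06 to -0.01 with 1 left out.

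Members turned direction as follows, on the log2 scale, and the cause was not tested. With the GC correction GPI stood at 0.0019, PFKP at 0.21, ALDOA at 0.17, ALDOC at 0.05, ENO2 at 0.02, SLC16A3 at 0.30, PGLS at 0.18, TKT at 0.11, DLAT at -0.03, IDH3G at 0.09 and ME1 at -0.16. With the block and GC they stood at 0.01, 0.21, 0.20, 0.06, 0.02, 0.30, 0.18, 0.11, -0.03, 0.08 and -0.16, in the same order. With GC and length GPI stood at 0.16, PFKL at 0.07, PFKP at 0.26, PFKFB3 at 0.18, ALDOA at 0.10, ALDOC at 0.01, ENO2 at 0.06, SLC16A3 at 0.47, TKT at 0.18, PDHB at -0.05, IDH3G at 0.02, ACLY at 0.04 and ME1 at -0.16. In TPM, GPI stood at 0.02, PFKP at 0.09, ALDOA at 0.0017 and SLC16A3 at 0.07, and without a filter PFKP at 0.0042. With 1 sample left out, HK2 ranged from -0.0034 to 0.18, GPI from -0.16 to 0.04, PFKP from -0.04 to 0.05, ALDOA from -0.4 to 0.26, SLC16A3 from -0.05 to 0.01 and DLST from -0.19 to 0.1, and the log2 ratio of ALDOC to ALDOA from -0.30 to 0.18, LDHB to LDHA from -0.02 to 0.26, PDK1 to PDK3 from -0.08 to 0.71, IDH3A to IDH3B from -0.0018 to 0.30 and PDHA1 to PDHB from -0.03 to 0.03.
SLC2A3 and PDK1, under a mean of 1 FPKM, could be compared only without the filter on low values.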
